A study of Rattus norvegicus with 36 samples.

Results

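Tumor necrosis factor (TNF) and the genes by which the transcription factor NF-kappaB controls itself were followed in rat lung after instillation of crystalline silica. The 10 genes were Tnf, its receptors Tnfrsf1a and Tnfrsf1b, the NF-kappaB subunits Nfkb1, Nfkb2 and Relb, the inhibitors and regulators Nfkbia, Tnfaip3 and Bcl3, and the survival gene Birc3. They were chosen by gene name on the array, as 10 of 25597 gene names, and all 10 were among the 23940 genes bright enough to test. In the RefSeq gene table of GRCr8, Birc3 also carries Birc2 as an older name, but the array has a probe of its own for Birc2.

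Female Sprague Dawley rats, 13 weeks old at instillation, received DQ-12, a crystalline silica dust, at 10 mg per rat in saline by the intratracheal route. Vehicle rats received saline alone. The accessory lobe of the lung was taken 1, 30 or 180 days later (D1, D30, D180) from 6 rats per group, and 1 single-color array was hybridized per rat, giving 36 arrays in 6 groups. The model is a whole lobe after a single high bolus, and each value is a mean over all cells of the lobe, and fewer cells of a type and less RNA per cell cannot be told apart.

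TNF is released mainly by macrophages and acts through a pair of receptors. Tnfrsf1a is present on most cells and carries a death domain, whereas Tnfrsf1b is found mainly on immune and endothelial cells. Signals from these receptors lead to the destruction of inhibitors of the IkappaB family, of which Nfkbia encodes the best known, and release NF-kappaB dimers into the nucleus. There they raise the transcription of inflammatory genes and of their own brakes, among them Nfkbia and Tnfaip3, which closes a feedback loop. A slower branch runs through Nfkb2 and Relb. Silica particles taken up by macrophages are known inducers of TNF in the lung.

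The kappaB motif, the DNA sequence that NF-kappaB binds, was looked for in the RefSeq promoters of these genes (GRCr8, 250 bases before to 50 after a start site), which were listed for 8 of the 10. The start site of that table is not always the first base of the annotated gene. It lies 2364 bases inside the gene for Nfkb2, 435 for Nfkb1, 235 for Nfkbia and 14 for Tnfaip3, and at the gene's first base for the other members listed. Promoters of Relb and Birc3 were not used here. The motif was spelled as 3 G, a purine, 2 bases of any kind, 2 pyrimidines and 2 C, and was searched on both strands. It was present in 5 of the 8 promoters, and in 7.51% of all 33469 promoters of that length. The 30 bases around each match are shown to let the sites be compared. They are read on the strand of the match, with the match in capitals, and the position of the match relative to that start site is given with each.
Tnfaip3, -170 to -161, chr1:15544130-15544159: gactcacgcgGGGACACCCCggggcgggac
Tnfaip3, -67 to -58, chr1:15544027-15544056: ggatttccgaGGGACTTTCCagtcacgtga
Tnfaip3, -55 to -46, chr1:15544015-15544044: ttcgccacagGGGGATTTCCgagggacttt
Nfkbia, -31 to -22, chr6:78597084-78597113: gtcaggcgcgGGGAATTTCCaagccagtca
Nfkb1, 4 to 13, chr2:226805440-226805469: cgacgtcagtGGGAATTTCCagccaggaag
Nfkb2, -20 to -11, chr1:255108344-255108373: tggtattttcGGGACTTTCCtaagagcact
Bcl3, -38 to -29, chr1:88613574-88613603: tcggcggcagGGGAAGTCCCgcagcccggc
Nfkbia and Nfkb1 held the same 10 letters, as did Nfkb2 and the middle match of Tnfaip3. The matches of Bcl3 and the farthest match of Tnfaip3 fit the motif on both strands. No match to these letters lay in the windows of Tnf, Tnfrsf1a and Tnfrsf1b, which says nothing about sites outside them. The AP-1 motif TGANTCA, which does not overlap any of these matches, lay in the promoters of Tnfrsf1b, Tnfaip3 and Nfkb2, 3 of the 8, and in 7.33% of all promoters.

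The stretches before the start site of Tnfaip3, Bcl3 and Tnf are shown because they stand for a promoter with 3 matches, with 1 match and with none. They are written in the direction of the gene on GRCr8, with kappaB matches in capitals.
Tnfaip3, minus strand, chr1:15543994-15544229, -250 to -15: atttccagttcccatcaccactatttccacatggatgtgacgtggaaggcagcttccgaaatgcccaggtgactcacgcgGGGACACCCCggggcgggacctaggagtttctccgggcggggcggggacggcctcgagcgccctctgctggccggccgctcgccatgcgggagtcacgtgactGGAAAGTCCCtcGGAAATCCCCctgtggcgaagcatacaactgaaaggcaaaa
Bcl3, minus strand, chr1:88613556-88613805, -250 to -1: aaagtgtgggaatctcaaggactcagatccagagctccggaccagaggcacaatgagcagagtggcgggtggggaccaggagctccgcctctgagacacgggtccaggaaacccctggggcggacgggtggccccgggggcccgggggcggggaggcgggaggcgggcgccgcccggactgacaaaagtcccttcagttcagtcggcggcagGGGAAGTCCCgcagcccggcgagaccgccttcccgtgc
Tnf, plus strand, chr20:3626435-3626684, -250 to -1: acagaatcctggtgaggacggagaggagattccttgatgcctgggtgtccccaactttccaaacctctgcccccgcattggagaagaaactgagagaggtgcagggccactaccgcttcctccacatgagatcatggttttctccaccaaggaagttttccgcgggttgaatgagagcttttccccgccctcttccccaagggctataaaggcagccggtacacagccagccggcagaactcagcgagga

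Across the arrays, 51.4 to 75.5% of probes were well above background, and the median correlation between arrays of the same group was 0.973 to 0.981 (Pearson's r). The lung label was checked on 9 markers of alveolar type 2 cells, all of which were well above background in every group. Slides and scan dates only partly separated the groups. At D1, all 6 DQ-12 arrays were scanned on a date that held 1 vehicle array, and 1 of 5 slides held both groups (1 vehicle and 4 DQ-12 arrays). At D30, both scan dates and 3 of 4 slides held both groups. At D180, 2 of 6 scan dates and 1 of 10 slides did, the latter with 1 array of each group. Exposure and scan date can therefore hardly be told apart at D1, and a fit with slide as a fixed block rests on 1 array per group at D180.

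All changes are given as the log2 fold change (FC) of DQ-12 over vehicle on quantile-normalized log2 signals, with the SE of the fit. A gene passed the test at an adjusted p under 0.05 (limma on all 36 arrays, 23940 genes, Benjamini–Hochberg adjustment at each time point). At D1, 3 of the 10 genes were higher after DQ-12 (Tnfrsf1b, Nfkb2 and Birc3) and none was lower, where 7.58% of all genes tested were higher. None of the 10 reached a FC of 2 (2.02% of all genes did). At D30, 3 were higher (Tnf, Tnfrsf1b and Birc3), where 2.74% of all genes were, and only Tnf reached a FC of 2 (0.915% of all genes). At D180, 8 were higher, where 7.81% of all genes were, and the others were Nfkbia and Tnfaip3. A FC of 2 was reached at D180 by Tnf, Tnfrsf1b, Birc3 and Bcl3 (2.85% of all genes). Over the 10 genes, the median log2 FC was 0.30, 0.27 and 0.62 at D1, D30 and D180, against -0.0097, -0.015 and -0.032 over all genes tested.

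**Figure D1:**
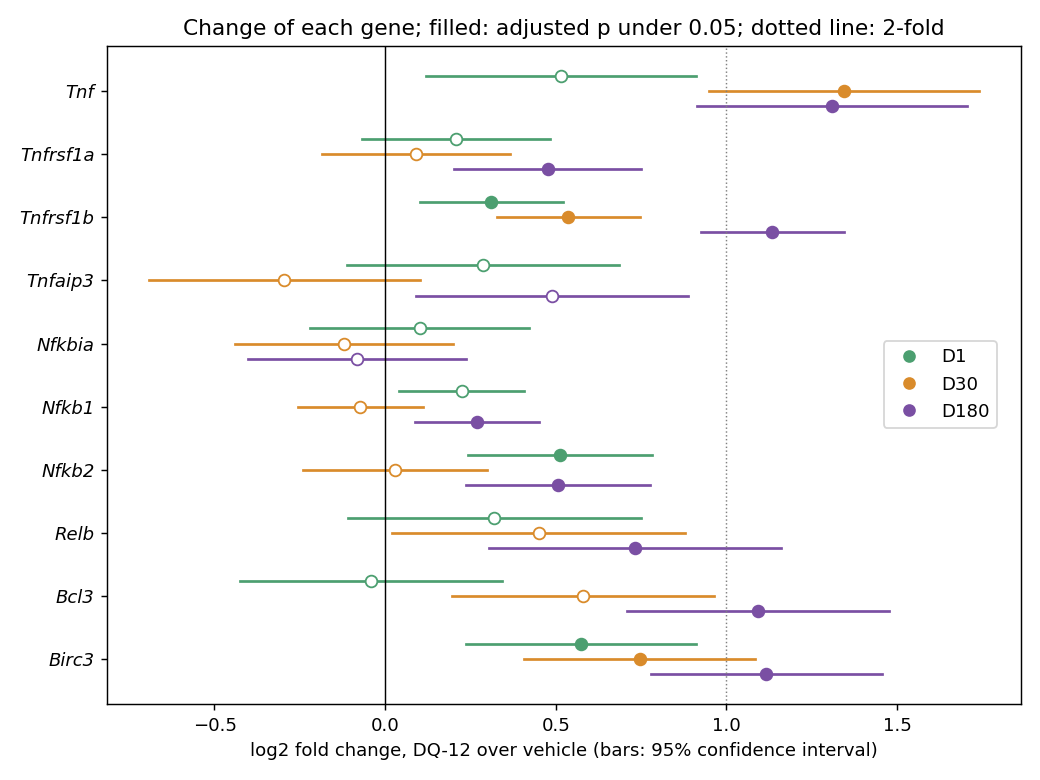
Log2 FC of DQ-12 over vehicle (horizontal axis) for each of the 10 genes at D1 (green), D30 (orange) and D180 (purple), with 95% confidence intervals from the SE of the fit and 30 residual degrees of freedom; filled points passed the adjusted p of 0.05. Only Tnf lies beyond the dotted 2-fold line at D30, and at D180 Tnf, Tnfrsf1b, Bcl3 and Birc3 do, whereas Nfkbia lies near 0 at each time point.

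The counts at D1 depended on how scan date and slide were treated. With scan date as a block, fixed or random, none of the 10 genes passed at D1, nor did any with slide as a fixed block, and only Nfkb2 passed with slide as a random block (adjusted p = 0.0251). Within the slide and the scan date that held both groups at D1, Tnfrsf1b (0.25 and 0.33), Nfkb2 (0.58 and 0.49) and Birc3 (0.32 and 0.34) were still higher after DQ-12, each against 1 vehicle array. At D180, 7 genes still passed with scan date as a fixed block, and with slide as a fixed block only Birc3 did (adjusted p = 0.0470). Over all genes, 1764 were higher at D180 with scan date as a fixed block, against 1870 without a block. At D1, 1815 of all genes were higher without a block, 884 with scan date as a random block and 1208 with slide as a random block. The fixed blocks leave 1 vehicle array to set against the DQ-12 arrays at D1, and lowered the count over all genes further. Slide as a fixed block also lowered it at D180. The loss of calls was thus not confined to the 10 genes. Leaving out vehicle rat 2 at D1 left 1 gene called at D1.

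Tnf, the ligand, was read from the brighter of its probes, at chr20:3663558-3663617 on rn4, the build of the array. The files do not say which part of a transcript a probe lies in. At D1, Tnf read 9.69, 9.84 and 10.01 (lowest, median and highest log2 signal) in vehicle rats and 10.06, 10.24 and 10.84 in DQ-12 rats. The groups did not overlap, but the change of 0.51 ± 0.19 (SE, n = 6 per group) missed the adjusted threshold (adjusted p = 0.0663), and the exact permutation p was the smallest that 462 splits allow (0.00216, n = 6 per group). At D30, vehicle rats read 9.21, 9.55 and 10.26, and DQ-12 rats 10.52, 10.82 and 11.57. The groups did not overlap, and the change was 1.34 ± 0.19 (2.54-fold, adjusted p = 2.82e-05). In the D180 groups, vehicle rats read 9.45, 9.69 and 9.95, and DQ-12 rats 10.50, 11.05 and 11.69. The groups were again apart, with a change of 1.31 ± 0.19 (2.48-fold, adjusted p = 7.05e-06). With slide as a fixed block the D180 change was 1.90 and missed the threshold (adjusted p = 0.0670), whereas within each of the 3 slides or scan dates that held both groups at D180 Tnf was higher after DQ-12 (1.04 to 1.90).

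Of the receptors, Tnfrsf1b passed the test at all 3 time points and Tnfrsf1a at D180. Tnfrsf1b, the receptor without a death domain, read 10.01, 10.16 and 10.30 (lowest, median and highest log2 signal) in vehicle rats and 10.20, 10.48 and 10.67 in DQ-12 rats at D1. In 5 of the 6 DQ-12 rats the D1 signal exceeded every vehicle rat, with a change of 0.31 ± 0.10 (1.24-fold, adjusted p = 0.0348). This call was lost when any of 7 of the 12 rats was left out (vehicle rats 1 to 4, DQ-12 rats 3, 4 and 6; adjusted p up to 0.0867) and with 75th percentile scaling. At D30, Tnfrsf1b read 9.88, 10.16 and 10.42 in vehicle rats and 10.40, 10.69 and 10.95 in DQ-12 rats. Here too 5 of 6 DQ-12 rats exceeded every vehicle rat, with a change of 0.54 ± 0.10 (1.45-fold, adjusted p = 0.00118). By D180, vehicle rats read 9.94, 10.09 and 10.40, and DQ-12 rats 11.07, 11.22 and 11.53. The groups were apart by more than the range of either, and the change was 1.13 ± 0.10 (2.20-fold, adjusted p = 9.43e-10), the smallest adjusted p among the 10 genes. With slide as a fixed block it was 0.67 (adjusted p = 0.160).

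Tnfrsf1a, the receptor with the death domain, read 11.76, 11.91 and 12.18 in vehicle rats and 11.79, 12.22 and 12.24 in DQ-12 rats at D1, and the groups overlapped (0.21 ± 0.13, adjusted p = 0.325). At D30, 4 of 6 vehicle rats lay below every DQ-12 rat and the other two overlapped them, with 11.46, 11.61 and 11.83 in vehicle rats and 11.64, 11.68 and 11.93 in DQ-12 rats (0.091 ± 0.13, adjusted p = 0.856). At D180, vehicle rats had a median of 11.71 and a lowest value of 11.07, and DQ-12 rats read 11.78, 12.11 and 12.41. Tnfrsf1a was higher by 0.48 ± 0.13 (1.39-fold, adjusted p = 0.0112) at D180 with 3 of 6 DQ-12 rats above the vehicle range, a call that was lost when only the D180 arrays were fitted and with slide as a fixed block. Within arrays, the change of Tnfrsf1b exceeded that of Tnfrsf1a by 0.10, 0.45 and 0.66 at D1, D30 and D180, a difference given without a test because this pair of genes was chosen after the values were seen, as were the other pairs set side by side here. A ratio within an array shows unequal change and not that one receptor stayed constant.

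Birc3, a ubiquitin ligase of the receptor complex that protects cells from death by TNF, was higher at all 3 time points. At D1, it read 7.96, 8.48 and 8.64 (lowest, median and highest log2 signal) in vehicle rats and 8.75, 8.95 and 9.37 in DQ-12 rats. The groups did not overlap, with a change of 0.57 ± 0.17 (1.49-fold, adjusted p = 0.0151), which missed the threshold without vehicle rat 2 (adjusted p = 0.0520) or without DQ-12 rat 2 (adjusted p = 0.0535). At D30, vehicle rats read 8.04, 8.51 and 8.75, and DQ-12 rats 8.82, 9.17 and 9.68. The change was 0.75 ± 0.17 (1.68-fold, adjusted p = 0.00570) with the groups apart, and was lost with slide as a fixed block (0.65, adjusted p = 0.107) and narrowly with a replicate block (adjusted p = 0.0572). At D180, vehicle rats read 8.05, 8.46 and 8.71, and DQ-12 rats 8.87, 9.55 and 10.04. The change was 1.12 ± 0.17 (2.17-fold, adjusted p = 7.01e-06), and it passed under all 14 other settings run for it. Its paralog Birc2, measured by a probe of its own, changed by 0.13, 0.22 and 0.45 at D1, D30 and D180, of which only the last passed (adjusted p = 0.0140). Whether the Birc3 probe also binds Birc2 transcripts was not tested.

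Nfkbia and Tnfaip3, the direct brakes among the 10 genes, did not pass the test at any time point in the model used throughout. This does not hold for all brakes on the pathway. Of 21 other subunits and feedback inhibitors, described below, 9 were higher and 2 lower at D180. Over all genes tested, 7.81% were higher and 9.01% lower. That list also holds NF-kappaB subunits that are not brakes, and Rel (0.92, adjusted p = 4.13e-04) was among the 9. Nfkbia, which encodes the inhibitor that holds NF-kappaB in the cytoplasm, read 12.18, 12.73 and 13.12 in vehicle rats and 12.53, 12.81 and 13.02 in DQ-12 rats at D1. At D30, it read 12.59, 12.99 and 13.24 in vehicle rats and 12.67, 12.86 and 12.98 in DQ-12 rats. At D180, the values were 12.50, 12.78 and 13.60 in vehicle rats and 12.65, 12.74 and 13.30 in DQ-12 rats. At each time point the DQ-12 rats lay entirely within the vehicle range. The log2 FC was 0.10, -0.12 and -0.083, with adjusted p of 0.727, 0.823 and 0.806, and the 95% interval of the D180 change ran from -0.40 to 0.24. These intervals leave room for a change of either sign. Within arrays, the change of Tnf exceeded that of Nfkbia by 0.41, 1.47 and 1.39 at D1, D30 and D180, also given without a test.

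Tnfaip3, a ubiquitin-editing enzyme that shuts off signaling at the receptor, read 6.74, 7.10 and 7.36 in vehicle rats and 7.11, 7.37 and 7.43 in DQ-12 rats at D1. At D30, it read 6.32, 7.06 and 7.68 in vehicle rats and 6.43, 6.66 and 7.48 in DQ-12 rats. At D180, it read 7.10, 7.54 and 7.83 in vehicle rats and 7.52, 8.06 and 8.29 in DQ-12 rats. The groups overlapped at D1 and D30, and at D180 all but 1 of the 6 DQ-12 rats lay above the vehicle range. The changes were 0.29 ± 0.19, -0.29 ± 0.19 and 0.49 ± 0.19, and none passed (adjusted p = 0.352, 0.515 and 0.0844). The D180 change passed without DQ-12 rat 5 (0.58, adjusted p = 0.0440), with normexp, with array weights and with slide or scan date as a random block, and the D30 change passed as a fall with array weights alone (-0.57, adjusted p = 0.0210). Within arrays, the change of Tnf exceeded that of Tnfaip3 by 0.23, 1.64 and 0.82 at the 3 time points, without a test.

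Among the subunits, Nfkb1, which encodes a subunit of the fast branch, read 9.75, 9.86 and 10.04 in vehicle rats and 9.99, 10.08 and 10.20 in DQ-12 rats at D1 (0.22 ± 0.090, adjusted p = 0.0846). At D30, the groups overlapped, with 9.86, 9.98 and 10.25 against 9.81, 9.90 and 10.20 (-0.073 ± 0.090, adjusted p = 0.806). In the D180 groups, vehicle rats read 9.80, 9.91 and 9.98, and DQ-12 rats 9.71, 10.22 and 10.45. At D180, 5 DQ-12 rats lay above and 1 below every vehicle rat, and the change was 0.27 ± 0.090 (1.21-fold, adjusted p = 0.0339). This is the smallest change called at D180 among the 10 genes. It was lost when any of 7 rats was left out (vehicle rats 2, 3 and 4, DQ-12 rats 1, 2, 4 and 6; adjusted p up to 0.108), with slide or scan date as a fixed block and when only the D180 arrays were fitted. Within 1 of the 2 scan dates of D180 that held both groups, the change was -0.092.

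Nfkb2, a subunit of the slower branch, was tightly grouped in vehicle rats at D1 (9.48, 9.54 and 9.58) and read 9.78, 9.96 and 10.68 in DQ-12 rats. All DQ-12 rats lay above the vehicle range, with a change of 0.51 ± 0.13 (1.43-fold, adjusted p = 0.00677). At D30, vehicle rats read 9.20, 9.61 and 9.68, and DQ-12 rats 9.19, 9.64 and 9.89, a change of 0.029 ± 0.13 (adjusted p = 0.974). By D180, vehicle rats read 9.30, 9.46 and 10.00, and DQ-12 rats 9.72, 10.06 and 10.28, with 4 of the 6 above every vehicle rat. The change was 0.51 ± 0.13 (1.42-fold, adjusted p = 0.00581), as at D1, but was lost with slide as a fixed block (0.70, adjusted p = 0.356). Within arrays, the change of Nfkb2 exceeded that of Nfkb1 by 0.29, 0.10 and 0.24, without a test.

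Relb, the partner of the Nfkb2 product, read 10.06, 10.21 and 10.88 in vehicle rats and 9.82, 10.79 and 10.93 in DQ-12 rats at D1, where the groups overlapped on both sides (0.32 ± 0.21, adjusted p = 0.332). At D30, it read 10.41, 10.60 and 10.97 in vehicle rats and 10.63, 11.16 and 11.43 in DQ-12 rats (0.45 ± 0.21, adjusted p = 0.281). At D180, vehicle rats read 9.57, 10.18 and 10.74, and DQ-12 rats 10.30, 10.89 and 11.45. The change at D180 was 0.73 ± 0.21 (1.66-fold, adjusted p = 0.0125) with 3 of 6 DQ-12 rats above the vehicle range, and it was lost when only the D180 arrays were fitted and with slide as a fixed block.

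Bcl3, an unusual IkappaB protein that works in the nucleus with NF-kappaB subunits, had a median of 11.41 and a highest value of 11.57 in vehicle rats, and read 10.70, 11.33 and 11.60 in DQ-12 rats at D1. The D1 groups overlapped fully (-0.042 ± 0.19, adjusted p = 0.920). At D30, it read 11.01, 11.40 and 11.58 in vehicle rats and 11.49, 11.83 and 12.56 in DQ-12 rats, and 5 of 6 DQ-12 rats were above the vehicle range (0.58 ± 0.19, adjusted p = 0.0797; 0.0464 with a replicate block). In the D180 groups, vehicle rats read 10.42, 10.88 and 11.24, and DQ-12 rats 11.25, 11.89 and 12.47. The groups were just apart, with a change of 1.09 ± 0.19 (2.13-fold, adjusted p = 6.17e-05). The mean of the DQ-12 rats was the same at D30 and D180 (11.94 ± 0.37 and 11.94 ± 0.49, SD, n = 6), whereas the mean of the vehicle rats was 11.36 ± 0.21 at D30 and 10.85 ± 0.30 at D180 (SD, n = 6). With slide as a fixed block the D180 change was 1.22 (adjusted p = 0.182).

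**Figure D2:**
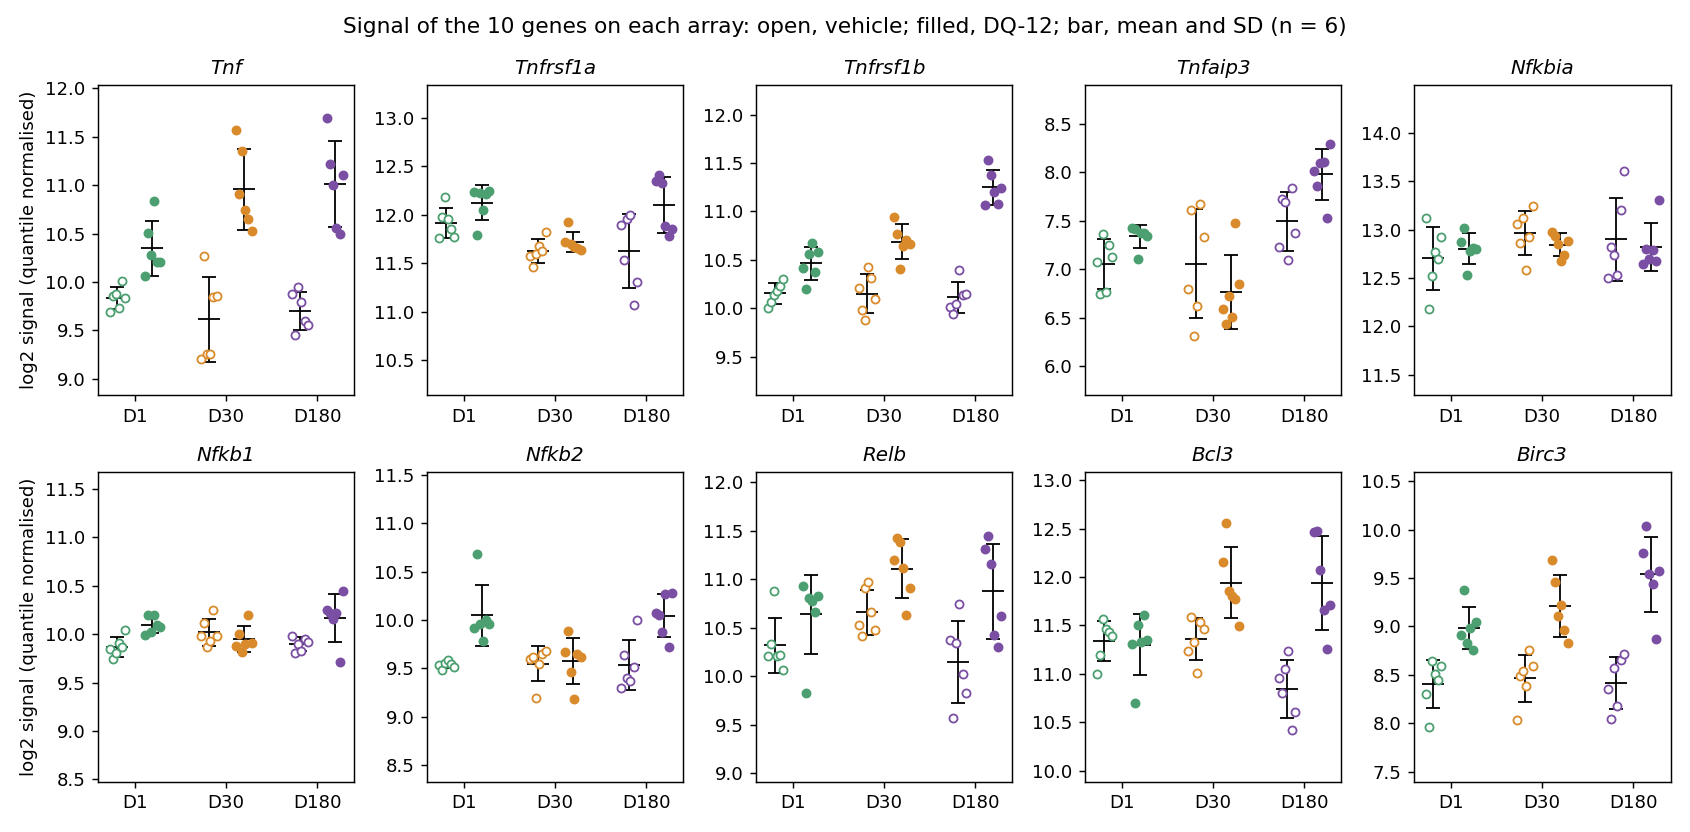
Log2 signal of each of the 10 genes (vertical axis, spanning the same number of log2 units in each panel) on each array, in vehicle (open) and DQ-12 (filled) rats at D1, D30 and D180; bars give the mean and SD of 6 rats. Tnf is clear of the vehicle rats at each time point, Tnfrsf1b rises above its vehicle rats farthest at D180, and the Nfkbia groups overlap throughout.

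The lowest DQ-12 rat exceeded the highest vehicle rat for 3 of the 10 genes at D1 (Tnf, Nfkb2 and Birc3), where 5.25% of all genes tested did so. At D30, this held for Tnf and Birc3 (1.81% of all genes), and at D180 for Tnf, Tnfrsf1b, Bcl3 and Birc3 (3.86% of all genes). Single rats differed in how many of the 10 genes exceeded every vehicle rat of the day. The like count over all genes tested was not made, so these numbers have no baseline beside them. At D1, the count was between 5 and 8 genes per DQ-12 rat, and at D30 between 3 and 7. At D180, rats 1 and 2 had 9 such genes, rat 3 had 8, rats 4 and 6 had 7, and rat 5 had 4. The mean change over the 10 genes was 0.27 in rat 5 at D180 and between 0.59 and 0.94 in the other rats of that group.

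**Figure D3:**
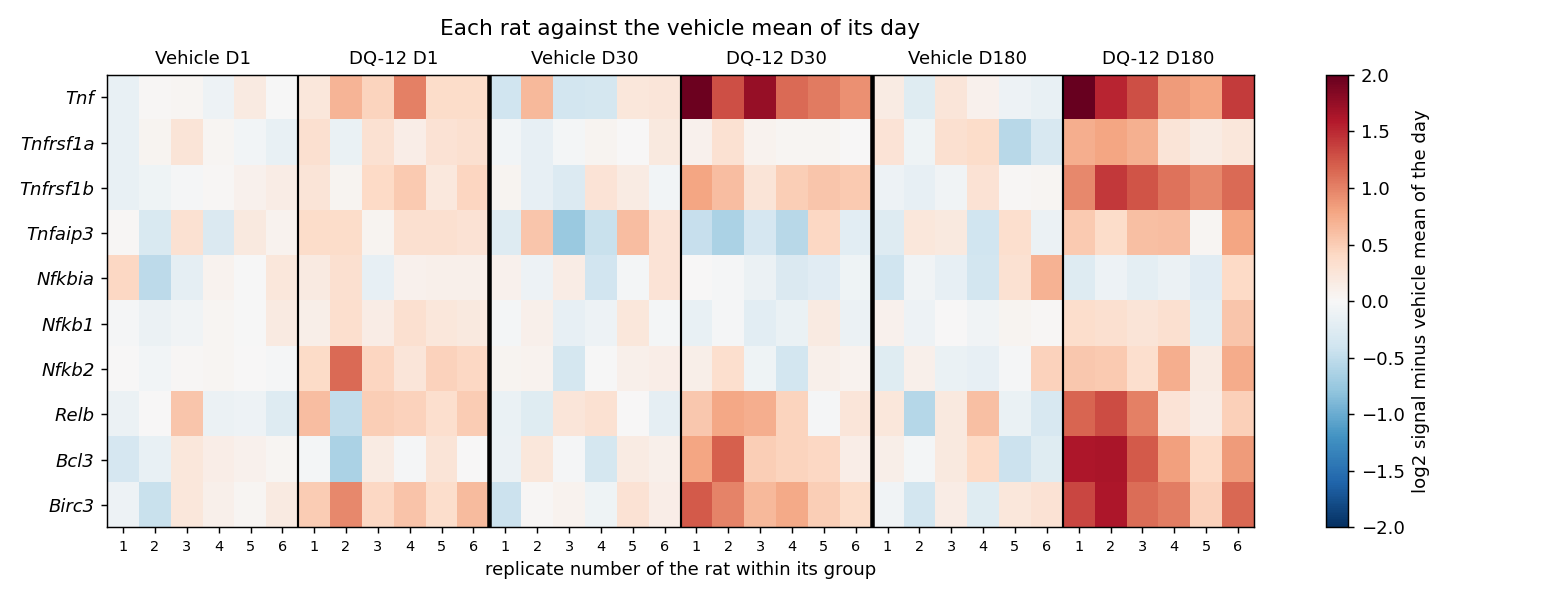
Log2 signal of the 10 genes on each of the 36 arrays minus the mean of the vehicle rats of the same day (red, higher; blue, lower; columns are rats by replicate number). Tnf, Tnfrsf1b, Bcl3 and Birc3 are red in the D180 DQ-12 rats, palest in rat 5 for Bcl3 and Birc3, and the Nfkbia row has no block that sets DQ-12 apart.

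The same model held interaction terms that compared the response of 2 time points. Between D1 and D180, the change differed for 2 of the 10 genes, where 4.54% of all genes passed. Tnfrsf1b changed by 0.31 at D1 and by 1.13 at D180, a difference of 0.82 ± 0.15 (adjusted p = 7.09e-04), and Bcl3 changed by -0.042 and by 1.09, a difference of 1.13 ± 0.27 (adjusted p = 0.0105). On the other Bcl3 probe the changes were 0.89 and 1.35, closer to each other. Neither passed with slide or scan date as a fixed block, and with the mean of all probes of a gene only 1 of the 10 genes passed. For Tnf, the change at D30 exceeded that at D1 by 0.83 ± 0.27, but this missed the threshold (adjusted p = 0.108), and D30 and D180 differed by -0.034 (adjusted p = 0.981). Between D1 and D30, none of the 10 passed in limma (2.18% of all genes did). Between D30 and D180, none passed either (0.242% of all genes), and the lowest adjusted p was that of Tnfrsf1b (0.60 ± 0.15, adjusted p = 0.0628). Array weights would give 2 and 4 genes for these comparisons, and the share of all genes under that setting is not given here.

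The 10 genes were represented by 17 probes, 5 of the genes by more than 1. With every probe tested on its own among 33717 probes, 6 of the 17 were higher at D1 (6.99% of all probes), 4 at D30 (2.33%) and 11 at D180 (7.01%). The second Tnf probe (chr20:3662706-3662765) was dim, well above background on 2 of 6 vehicle and 4 of 6 DQ-12 arrays at D1, and changed by 1.16 (adjusted p = 0.0172), 1.49 (adjusted p = 0.00815) and 1.44 (adjusted p = 0.00259) at D1, D30 and D180. At D30 it was well above background on none of the vehicle arrays and on 4 of 6 DQ-12 arrays. The D30 change there is given as a lower bound, 1.98-fold, which takes in the dim DQ-12 arrays too and is itself uncertain. At D180 it was well above background on 2 of 6 vehicle and 5 of 6 DQ-12 arrays, so that the size of that change is also uncertain. Both Tnf probes were higher after DQ-12 at each time point.

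The probes of Bcl3 disagreed at D1. The probe that stands for Bcl3 (chr1:79122820-79122879) changed by -0.042, whereas the dimmer one (spanning chr1:79125464-79125707) changed by 0.89 ± 0.24 (adjusted p = 0.00928), with all 6 DQ-12 rats above all vehicle rats. At D30 the dimmer probe changed by 0.35 (adjusted p = 0.549), and at D180 by 1.35 (adjusted p = 8.46e-05), in the same direction as the other. The dimmer probe was well above background on 4 of 6 vehicle arrays at D1 and at D180, so that the size of its change there is uncertain. The absence of a Bcl3 call at D1 therefore rests on the choice of probe.

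At D30 and D180, the changes of the 4 Relb probes fell into pairs by position. The probe that stands for the gene (chr1:78915593-78915652) and the next one (chr1:78916328-78916387) were both higher at D180, by 0.73 and 0.68 (adjusted p = 0.0115 for the second). The other pair (chr1:78920771-78920830 and chr1:78920844-78921231) changed by 0.055 and -0.061 at D180, far from the threshold (adjusted p = 0.937 and 0.918). At D30, the first pair changed by 0.45 and 0.42 and the other by -0.17 and -0.073, and none passed. At D1 there was no such split. The first pair changed by 0.32 and 0.50 and the other by 0.61 and 0.29, and none passed. For Nfkb1, the second probe was higher by 0.55 at D1 (adjusted p = 0.0311) and by 0.48 at D180 (adjusted p = 0.0635). For Tnfaip3, the second probe, which the files leave unmapped like the first, changed by -0.011, 0.014 and -0.18, none near the threshold, so that the D180 value of the first probe (0.49) has no counterpart there.

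**Figure D4:**
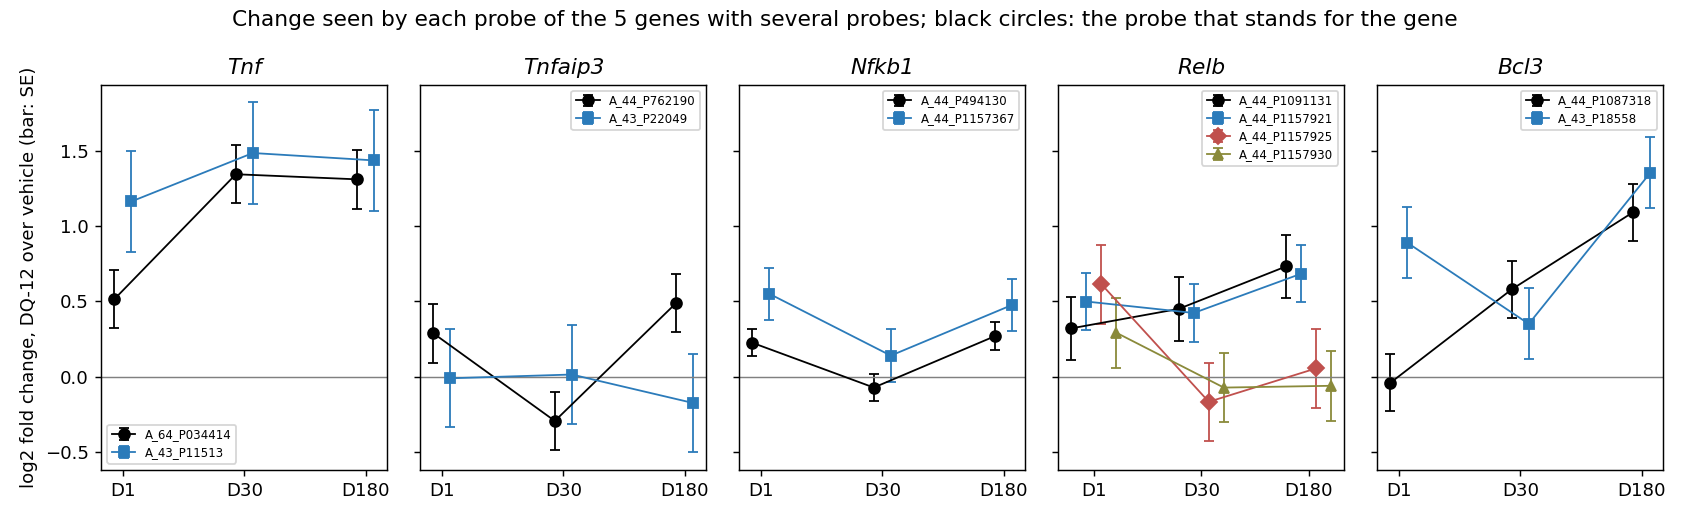
Log2 FC (vertical axis, bars are the SE) of each probe of the 5 genes with several probes at D1, D30 and D180; black circles mark the probe that stands for the gene. Both Tnf probes lie above 0 throughout but apart at D1 (0.51 and 1.16), the Bcl3 probes differ at D1 (-0.042 and 0.89), and of the 4 Relb probes 2 lie near 0 at D180.

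The wider pathway was described by 4 lists of genes. Over all genes tested, 7.58, 2.74 and 7.81% were higher and 8.62, 1.24 and 9.01% lower at D1, D30 and D180. Of 21 other NF-kappaB and IkappaB subunits and feedback inhibitors, 3 were higher and 1 lower at D1, 4 and 1 at D30, and 9 and 2 at D180, with a median log2 FC of 0.068, 0.16 and 0.30. Rises of at least 2-fold at D180 included Tnip3 (1.60 ± 0.41, adjusted p = 0.00537), which binds the Tnfaip3 product, Usp18 (1.47 ± 0.25, adjusted p = 5.66e-05), a brake on interferon signaling, and Zc3h12a (1.29 ± 0.17, adjusted p = 6.68e-07), an RNase that destroys inflammatory transcripts. Tnip3 was dim, well above background on 2 of 6 vehicle and 5 of 6 DQ-12 arrays at D180, so that the size of its change is uncertain. Otud7b (-0.54 ± 0.12, adjusted p = 0.00144) and Pdlim2 (-0.45 ± 0.14, adjusted p = 0.0217), other negative regulators of the pathway, were the 2 that fell at D180. Rises of less than 2-fold at D180 included Nfkbid (0.96 ± 0.12, adjusted p = 2.64e-07) and Nfkbie (0.81 ± 0.14, adjusted p = 5.20e-05). Nfkbib (0.52 ± 0.11, adjusted p = 0.00106) and Otulin (0.47 ± 0.076, adjusted p = 2.35e-05) were also among them.

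Of 28 genes of the TNF receptor complex and its kinases, 2 were higher and 2 lower at D1, 1 was higher at D30, and 6 were higher and none lower at D180 (median log2 FC 0.10, -0.0080 and 0.091). The shares at D1 and D30 (7.14 and 3.57% higher) were near those over all genes. Only Ripk3, a kinase of necrotic cell death, reached a FC of 2, at D180 (1.27 ± 0.15, adjusted p = 1.37e-07). Of 12 other receptors of the TNF superfamily, 2 were higher at D1, 2 at D30 and 3 at D180, and 2, 1 and 0 were lower. Tnfrsf8 fell at D1 (-1.12 ± 0.20, adjusted p = 2.01e-04). Tnfrsf9, a costimulatory receptor of lymphocytes, rose at D30 (1.70 ± 0.30, adjusted p = 3.91e-04) and D180 (2.04 ± 0.30, adjusted p = 5.29e-06), and was well above background on 3 and 4 of 6 vehicle arrays, so that these sizes are uncertain. Tnfrsf4, another costimulatory receptor, and Tnfrsf11a, the receptor known as RANK, rose at D180 by 1.54 ± 0.17 and 1.06 ± 0.18 (adjusted p = 3.42e-08 and 5.37e-05).

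Of 41 other target genes of NF-kappaB, 7 were higher and 3 lower at D1, 12 and 0 at D30, and 22 and 2 at D180 (median log2 FC 0.048, 0.24 and 0.81). Ccl2, a chemokine that attracts monocytes, rose by 2.56 ± 0.24, 2.80 ± 0.24 and 4.54 ± 0.24 at D1, D30 and D180, with all DQ-12 rats above all vehicle rats each time. Cxcl10, a chemokine for T cells, rose by 1.61 ± 0.51, 1.78 ± 0.51 and 2.98 ± 0.51. Lcn2, an iron-binding defense protein, rose by 4.61 ± 1.27 at D1 and 4.69 ± 1.27 at D180, but varied widely between vehicle rats (SD 2.45 at D1), and its change of 1.74 at D30 did not pass (adjusted p = 0.576). Cxcl2, a neutrophil chemokine, rose by 1.34 ± 0.37, 1.76 ± 0.37 and 1.99 ± 0.37. These lists were chosen with earlier results of these data known, and their shares are descriptions.

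**Figure D5:**
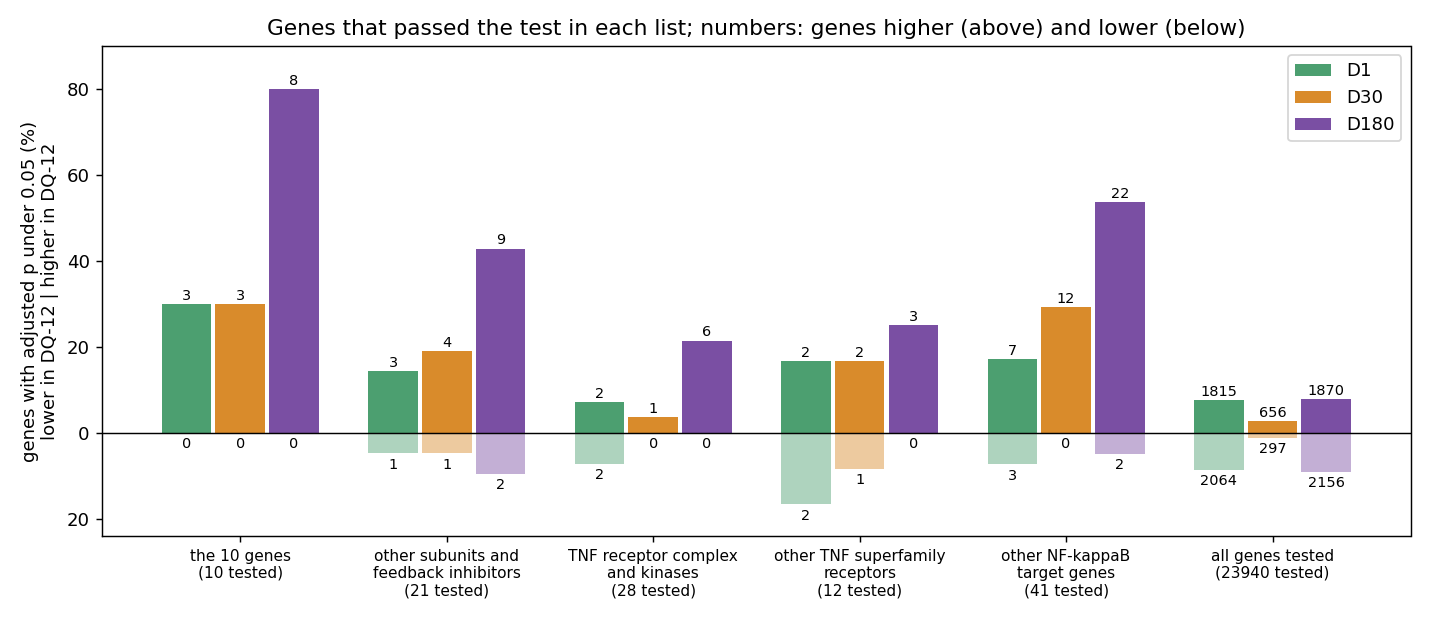
Percentage of the tested genes of each list that were higher (upward bars) or lower (downward, pale bars) after DQ-12 at an adjusted p under 0.05, at D1, D30 and D180, with the numbers of genes at the bars. At D180, 8 of the 10 genes, 9 of 21 other subunits and inhibitors and 22 of 41 other targets were higher, against 1870 of 23940 genes tested.

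Markers of several cell types moved at the same time. Over all genes tested, 7.58, 2.74 and 7.81% were higher and 8.62, 1.24 and 9.01% lower at D1, D30 and D180. Of 14 neutrophil markers, 2, 3 and 6 were higher at D1, D30 and D180 (2, 1 and 1 lower), and their mean log2 signal was 6.99 to 7.43 in vehicle rats and 7.77 to 8.20 in DQ-12 rats at D180. It was 6.94 to 7.11 and 7.08 to 7.52 at D1, and 6.75 to 7.09 and 7.12 to 7.58 at D30. The granule gene Elane was not well above background on every array. Of 17 macrophage and monocyte markers, 7, 8 and 9 were higher (1, 0 and 2 lower). Their mean log2 signal was 9.31 to 9.53 in vehicle and 9.62 to 9.82 in DQ-12 rats at D1, 9.15 to 9.32 and 9.45 to 10.02 at D30, and 9.29 to 9.70 and 10.07 to 10.32 at D180. Marco was well above background on none of the DQ-12 arrays at D1 and none of the vehicle arrays at D30.

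Of 9 endothelial markers, 0, 1 and 7 were lower, and their mean log2 signal at D180 was 12.60 to 12.90 in vehicle rats and 11.86 to 12.36 in DQ-12 rats. Of 8 alveolar type 1 markers, 4, 1 and 7 were lower, and of 9 alveolar type 2 markers 1, 3 and 4 were higher and 1, 0 and 1 lower. Among T cell markers, 0, 0 and 1 of 12 were higher and 1, 0 and 0 lower, and none of 9 B cell markers passed in either direction in limma. Of 11 muscle markers, 1 was higher at D1 (9.09%) and 3 were lower at D180 (27.3%). The T cell counts and the muscle count at D1 were near the shares over all genes or below them. The part that a changed cell makeup has in the changes of Tnf, Tnfrsf1b, Birc3 and Bcl3 was not tested.

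For the 4 genes called at 2 or more time points, the genes with the most similar course over the 36 arrays were sought, by the root mean square difference of log2 signals centered on the vehicle mean of the day. Nearest to Tnf were RGD1565410 (difference 0.32) and Zc3h12a (0.33). Nearest to Tnfrsf1b were Nfam1 (0.14) and Mfsd12 (0.17), and nearest to Birc3 were Csf1 (0.21) and Rel (0.23), of which Rel encodes another NF-kappaB subunit. Nearest to Nfkb2 were Ddost (0.16) and Efhd2 (0.18). Rel changed by 0.60, 0.72 and 0.92 at D1, D30 and D180, beside 0.57, 0.75 and 1.12 for Birc3. The measure favors genes with little change and little noise, and it is a description over arrays that share day and slide.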

How the data were processed

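Accessory lobes of 36 rats were measured on 36 arrays. The authors deposited, for each spot, background-corrected intensity from Agilent Feature Extraction 12.0.1.1, and a table of log2 values that the authors had scaled to the 75th percentile of each array and centered on the median of each probe (r = 1.00 with values rebuilt here). The log2 of the intensity was used. Spots marked as outliers were left out, spots of a probe averaged, probes kept if above the 95th percentile of 308 negative controls on at least 6 arrays, and arrays quantile normalized. The probe with the highest mean signal stood for a gene. A model of 6 group means was fitted with limma 3.58.1 in R 4.3.3 (2-sided, Benjamini–Hochberg), and exact permutation tests used the 462 distinct splits of 12 arrays. The calculations were tested on simulated data. The number of arrays limits the precision.

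The 10 genes and all lists were chosen with earlier results of these data known. The genes named in the text are all 10 members, the 3 largest rises and falls per list and time point among genes with a FC of at least 2, and, for members called at 2 or more time points, the 2 nearest genes. Birc2, Otud7b, Pdlim2, Nfkbid, Nfkbie, Nfkbib, Otulin, Marco and Elane were named outside this rule after their values were seen, as were the pairs of genes. The study's methods mention a batch correction without naming its variable, so slide and scan date were alternatives. Probe positions are those of the array on rn4, and promoters and gene names come from RefSeq on GRCr8. The files hold no exon annotation of rn4, and no positions were converted between builds. Figures used matplotlib 3.10.9.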

Additional observations from a re-analysis of the deposited data

Results flagged for a closer look

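In 8 of the 60 sets of 6 rats (10 genes in 6 groups), 1 rat lay apart from the others by Dixon's criterion, where chance alone gives about 1 set in 20. DQ-12 rat 2 at D1 was the highest for Nfkb2 (10.68, the next 10.00) and the lowest for Relb (9.82, the next 10.66) and Bcl3 (10.70, the next 11.31). Also at D1, DQ-12 rat 3 was the lowest for Tnfaip3 (7.11, the next 7.34) and vehicle rat 3 the highest for Relb (10.88, the next 10.33). At D30, DQ-12 rat 2 was the highest for Tnfrsf1a (11.93, the next 11.72) and vehicle rat 3 the lowest for Nfkb2 (9.20, the next 9.55). At D180, DQ-12 rat 6 was the highest for Nfkbia (13.30, the next 12.80).

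The change of 2 genes differed between time points in the interaction test. The D180 change exceeded the D1 change by 0.82 for Tnfrsf1b (adjusted p = 7.09e-04) and by 1.13 for Bcl3 (adjusted p = 0.0105). On the other probe of Bcl3, the changes were 0.89 at D1 and 1.35 at D180. Of the 6 vehicle arrays of D1, 5 had other scan dates than the DQ-12 arrays of that day, and the part of scan date in these differences was not tested apart from the blocked fits, in which neither passed.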

How the results depend on the processing

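Counts of the 10 genes moved with several settings, and so did counts over all 23940 genes tested. At D1, 1815 of all genes were higher in the report. With the mean of all probes it was 1663, with array weights 2583, and with slide or scan date as a random block 1208 and 884. With slide or scan date as a fixed block, which leaves 1 vehicle array at D1, the count over all genes was lower still. At D1 (3 genes in the report), 6 passed with the mean of all probes, 5 with array weights, 1 with slide as a random block, and 0 with slide as a fixed block or with scan date as a fixed or random block. At D30 (3 genes), 6 passed with array weights. Over all genes at D30, 656 were higher and 297 lower in the report, and 1654 and 1794 with array weights. At D180, 1870 of all genes were higher in the report and 1303 with only the arrays of the day. That count was lower still with slide as a fixed block, which rests on 1 array per group. At D180 (8 genes), 5 passed with only the arrays of the day and 1 with slide as a fixed block, also at a FC of 2 (4 genes in the report). At D30, 2 genes passed at a FC of 1.5 in place of 1 at a FC of 2. For the differences between time points, counts over all genes under each setting are not given here. The difference between D1 and D30 (0 genes) passed for 2 with array weights. That between D30 and D180 (0 genes) passed for 1 with normexp, the filter on well above background, or trend and robust moderation, and for 4 with array weights. That between D1 and D180 (2 genes) passed for 1 with the mean of all probes, 4 with array weights, and 0 with slide or scan date as a fixed block. With 1 rat left out, the counts were 1 to 3 at D1, 3 to 3 at D30, 7 to 9 at D180, 0 to 0, 1 to 1 and 3 to 4 at a FC of 2, and 0 to 0, 0 to 1 and 2 to 2 for the differences D30 against D1, D180 against D30 and D180 against D1. The cause was not tested.

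Signs turned only for changes that had not passed, except for Nfkb1 at D180 within 1 scan date (-0.092) and 1 other probe of Relb at D180 (-0.061). With slide or scan date as a fixed block, the log2 FC was -0.066 and -0.055 for Tnfrsf1a, -0.030 and -0.021 for Tnfaip3 and -0.32 and -0.24 for Relb at D1, 0.065 and 0.14 for Tnfaip3 and 0.0066 and 0.042 for Nfkb1 at D30, and 0.12 and 0.055 for Nfkbia at D180. With array weights it was 0.041 for Bcl3 at D1, -0.047 for Nfkb2 at D30 and 0.020 for Nfkbia at D180, and with the mean of all probes 0.42 for Bcl3 at D1 and 0.033 for Nfkb1 at D30. On other probes it was -0.011, 0.014 and -0.18 for Tnfaip3, 0.14 for Nfkb1 at D30, -0.17 and -0.073 for Relb at D30, -0.061 for Relb at D180 and 0.89 for Bcl3 at D1. With 1 rat left out, it ran from -0.0021 to 0.19 for Nfkbia at D1, -0.18 to 0.058 for Nfkbia at D180, -0.042 to 0.11 for Nfkb2 at D30 and -0.11 to 0.078 for Bcl3 at D1. Scaling to the 75th percentile, normexp and the deposited log2 table turned no sign, and no probe filter did.

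Rats of different groups share only a number: deviations of same-numbered vehicle and DQ-12 arrays correlated between -0.13 and 0.22, over 0.1 in 6 of 18 pairs, and 5 of 18 vehicle arrays correlated best with their own number. With a replicate block, Birc3 missed the threshold at D1 (adjusted p = 0.0740) and D30 (adjusted p = 0.0572), and Bcl3 passed at D30 (adjusted p = 0.0464). The intra-block correlation was 0.387 for slide and 0.251 for scan date. Signal over background limited the second probes of Tnf and Bcl3, which some arrays did not measure above background. The second probe of Tnfaip3 was well above background on 5 of 6 vehicle arrays at D180 and on all arrays of the other groups.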
